A study of Mus musculus with 2 samples.

Results

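Ribosomal protein genes encode the proteins that, with ribosomal RNA, build the small (40S) and large (60S) subunits of the cytoplasmic ribosome. They were chosen by symbol: gene symbols that begin with Rpl or Rps and a number, with Rplp0, Rplp1, Rplp2 and Rpsa, and without pseudogene symbols and the Rps6k kinases. This gave 86 of the 32285 genes in the deposited tables. They comprised 43 genes of the 60S subunit, 31 genes of the 40S subunit, 3 genes of the P-stalk and 9 paralogs or associated proteins. The rule used no measured value. The genes lay on 19 chromosomes.

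The data came from 2 single-cell RNA-seq libraries of C57BL/6J mice aged 18-20 weeks. One library held intraepithelial lymphocytes (IEL) from normal colon and the other held tumor-infiltrating lymphocytes (TIL) from a colon tumor, and both were labelled as gamma-delta T lymphocytes, T cells whose receptor is built from a gamma and a delta chain. The labels name neither a tumor model nor a number of pooled mice, and the only tissue in the protocol text is tumor, also for the library of normal colon. With 1 library per tissue there was no replicate check, so no p-value is given. Every interval covers the counting error of unique molecular identifiers (UMIs, each marking 1 captured RNA molecule) and not the spread between mice, and tissue and library cannot be told apart.

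A filter on barcodes (a minimum of 500 genes and 1000 UMIs, and a mitochondrial part of no more than 10%) left 9128 of 9398 IEL barcodes and 12407 of 13245 TIL barcodes. Of the kept barcodes, 29 occurred in both libraries. The ribosomal protein genes were described in 3 groups of cells. The first was all 9128 IEL cells, with a median of 6858.5 UMIs per cell. The second was 8576 TIL cells with UMIs of Cd163l1, a scavenger receptor gene of interleukin-17-producing gamma-delta T cells, with a median of 6606 UMIs. The third was 691 TIL cells with UMIs of Ccr7, a chemokine receptor gene of T cells that circulate through lymph nodes, with a median of 5661 UMIs. The 843 TIL cells with UMIs of both genes had a median of 9260 UMIs and stayed out of both TIL groups, and no doublet caller was run.

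The markers of the labelled cell type were present in each group. A Trdc UMI, from the constant part of the delta chain, was found in 96.7% of IEL cells, 99.6% of Cd163l1 TIL cells and 95.1% of Ccr7 TIL cells. A Trac UMI, from the alpha chain of the other T cell lineage, was found in 77.7%, 37.0% and 26.3% of them. Of the other markers of that lineage, Trbc1 and Trbc2 fell far less than Trac, Cd8b1 was lowest in Cd163l1 TIL cells, and Cd4 rose. Trbc1 was found in 81.4%, 80.6% and 75.4%, and Trbc2 in 97.8%, 93.9% and 92.3%. Cd8b1 was found in 6.64%, 0.292% and 11.1%, and Cd4 in 0.0548%, 0.257% and 1.16%. The gamma chain genes were found least often in Ccr7 TIL cells. Tcrg-C1 was found in 74.98%, 94.5% and 40.8%, Tcrg-C2 in 68.1%, 41.1% and 33.3%, and Tcrg-C4 in 69.0%, 53.3% and 34.9%. A Cd3e UMI was found in 94.7%, 92.7% and 75.1%. Summed counts scaled to the total of a group (CPM, UMIs per 1000000) put Il17a at 11.3 CPM in IEL cells, 5251 CPM in Cd163l1 TIL cells and 969 CPM in Ccr7 TIL cells. Summed over 5 genes of recirculating or naive T cells, without Ccr7 because it chose the cells, the level was 177, 162 and 1424 CPM. Genes of other cell types also differed. The 4 globin genes summed to 0.189 CPM in IEL cells, 2412 CPM in Cd163l1 TIL cells and 5047 CPM in Ccr7 TIL cells, the 5 neutrophil genes to 0.0436, 281 and 427 CPM, the 7 macrophage genes to 3.02, 253 and 368 CPM and the 8 dendritic cell genes to 123, 279 and 1055 CPM. The 5 epithelial genes went the other way, at 89.9 CPM in IEL cells, 14.8 CPM in Cd163l1 TIL cells and 20.5 CPM in Ccr7 TIL cells. Of the neutrophil genes, 4 of 5 were at 0 in IEL cells. Of the dendritic genes, Cd74 and H2-Ab1 made up most of the level in each group. Cd74 stood at 65.4, 201 and 721 CPM and H2-Ab1 at 35.4, 73.4 and 313 CPM. A Cd74 UMI was found in 20.0%, 34.7% and 18.2% of cells and a H2-Ab1 UMI in 17.8%, 24.6% and 13.7%.

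A cell makes its ribosomal proteins in nearly equal numbers, and the mRNAs of most of them are abundant and stable. In mammals these mRNAs typically begin with a cytosine followed by a run of pyrimidines, the 5′ terminal oligopyrimidine (TOP) motif, through which the kinase mTOR and the protein LARP1 control their translation. Resting and naive T cells are known for holding many such mRNAs in store, and T cell activation calls for new ribosomes. An mRNA level therefore does not give the rate at which ribosomal proteins are made.

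RefSeq starts (build GRCm38.p6) were matched for 66 of the 86 genes. A cytosine at the annotated start followed by at least 4 more pyrimidines, on the transcribed strand, was found in 14 of the 66, or 21.2%, against 3.01% of the 27025 genes with a start. A cytosine followed by 6 or more pyrimidines was then searched from 10 bases before the start to less than 40 bases after it. It was found in 42 of the 66, or 63.6%, against 22.3%. The letters CTTTCC, which can overlap such a run, were searched from 10 bases before to 40 bases after the start on the transcribed strand. They were found in 17, or 25.8%, against 2.47%. A match is a description of the letters near an annotated start, which can lie some bases from the start a cell uses. The windows below run from 12 bases before the start through the first 18 transcribed bases, and the capitals mark the pyrimidine run at the annotated start. Of Rps27l, the first of its annotated starts is shown. The windows are shown for only some of the genes named further on, and they do not represent the 66 genes. Other leading genes had no run at any annotated start and are not shown, among them Rps24, Rps19, Rpl12 and Rpl36a.
Rps27, chr3:90213631-90213660, minus strand: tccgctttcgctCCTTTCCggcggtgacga
Rps27rt, chr9:114982722-114982751, minus strand: acttatcccttgCTTTCCggcggtgacgac
Rps27l, chr9:66946074-66946103, plus strand: ctcctccccgccgcctctatcccggaagtt
Rps18, chr17:33955648-33955677, minus strand: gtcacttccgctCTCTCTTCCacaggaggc
Rps15a, chr7:118116130-118116159, minus strand: tctttctgccatCTTCCCTCgccggtgagt
Rpl35, chr2:39005114-39005143, minus strand: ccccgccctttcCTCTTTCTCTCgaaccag
Rpl14, chr9:120571505-120571534, plus strand: cgggccctctctCTTCTCgctgagcgccgc
Rpl31, chr1:39367839-39367868, plus strand: cctcctcgcctccccgtgacccggaagttg
Rpl39l, chr16:10170216-10170245, plus strand: ccaggcctttccggatttccggtggtcgcc
Rps27, Rps27rt, Rps18, Rps15a, Rpl35 and Rpl14 carried the run at the annotated start. Rpl31 and the paralogs Rps27l and Rpl39l did not carry it there.

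Ribosomal protein genes took different shares of the RNA in the 3 groups of cells. They made up 23.8% of all UMIs in IEL cells, 18.5% in Cd163l1 TIL cells and 32.3% in Ccr7 TIL cells. The median cell had a share of 23.2% in IEL, 17.04% in Cd163l1 TIL and 33.5% in Ccr7 TIL, with 10th to 90th percentiles of 18.6% to 29.0%, 11.2% to 25.6% and 20.7% to 44.6%. The distributions of single cells overlapped, and the 2 TIL groups were each wider than the IEL group. A share above the IEL 90th percentile was found in 68.6% of Ccr7 TIL cells and 3.81% of Cd163l1 TIL cells. A share below the IEL 10th percentile was found in 60.9% of Cd163l1 TIL cells and 7.53% of Ccr7 TIL cells. In molecules, the median cell held 1597 ribosomal protein UMIs in IEL, 1103 in Cd163l1 TIL and 1844 in Ccr7 TIL.

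**Figure D1:**
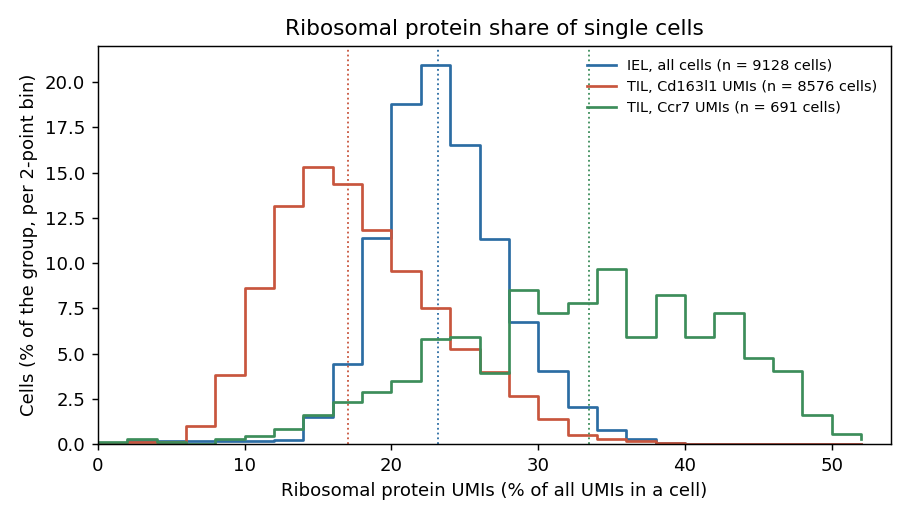
Histogram of the share of a cell's UMIs that came from the 86 ribosomal protein genes (x axis, percent of all UMIs in the cell), in bins of 2 percentage points, as a percentage of the cells of each group (y axis); dotted lines mark the group medians. Cd163l1 TIL cells centre on 17.04%, IEL cells on 23.2% and Ccr7 TIL cells on 33.5%, and the 3 distributions overlap.

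The pooled share was 0.778-fold in Cd163l1 TIL cells relative to IEL cells, a log2 ratio of -0.36 (exact 95% counting interval -0.36 to -0.36). It was 1.36-fold in Ccr7 TIL cells relative to IEL cells, a log2 ratio of 0.44 (0.44 to 0.45). Within the TIL library it was 1.75-fold in Ccr7 cells relative to Cd163l1 cells, a log2 ratio of 0.81 (0.80 to 0.81). A share depends on the other genes as well. Ccl5, a chemokine gene of cytotoxic T cells, alone stood at 22142 CPM in IEL cells, 559 CPM in Cd163l1 TIL cells and 2343 CPM in Ccr7 TIL cells. The median gene at 20 CPM or more in either group had a log2 ratio of -0.09, -0.26 and -0.22 in the 3 comparisons, in the order given. With the median gene set to a ratio of 1, the log2 ratios of the ribosomal protein share were -0.27, 0.70 and 1.02.

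Where other cell types could contribute, the share was also taken in narrower sets of cells. In droplets with a Cd3 UMI and few UMIs of the other cell types, the log2 ratios were -0.47, 0.57 and 1.04, over 5493 IEL, 3725 Cd163l1 TIL and 412 Ccr7 TIL cells. Each was larger in size there than over all cells of the groups. In cells with a delta or gamma chain UMI and no Trac UMI they were -0.47, 0.41 and 0.88, over 2010, 5389 and 491 cells. The part of free globin and myeloid RNA within each droplet was not tested.

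The order of the groups was the same in each of 5 depth ranges. Among cells with 5000 to 8000 UMIs, the median share was 22.9% in 5549 IEL cells, 16.3% in 4060 Cd163l1 TIL cells and 38.0% in 273 Ccr7 TIL cells. Among cells with over 12000 UMIs it was 23.7%, 20.4% and 28.5%, the last from 49 cells. The distance between the groups was thus smaller among the deepest cells. In the lowest bin, 1000 to 3000 UMIs, the medians were 18.5%, 14.9% and 29.2%, the last from 20 cells.

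The share moved with the number of UMIs of the gene that chose the cells. TIL cells with neither gene had a median share of 23.1%, close to the 23.2% of IEL cells. Their spread was wider, with 10th to 90th percentiles of 14.6% to 33.5% against 18.6% to 29.0%. With 1 Ccr7 UMI and no Cd163l1 UMI the median TIL cell stood at 30.0%, and with 2, 3 and 4 to 5 Ccr7 UMIs at 35.0%, 34.9% and 35.0%. With 10 or more it stood at 31.2%, from 28 cells. With 1 Cd163l1 UMI and no Ccr7 UMI the median TIL cell stood at 19.0%, with 2 at 17.8%, with 6 to 9 at 16.5% and with 10 or more at 16.3%. TIL cells with UMIs of both genes stood between, at a median of 21.5%. The number of selecting UMIs also went with depth: median totals ran from 5970.5 UMIs in TIL cells with 1 Cd163l1 UMI to 8704 in those with 10 or more.

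**Figure D2:**
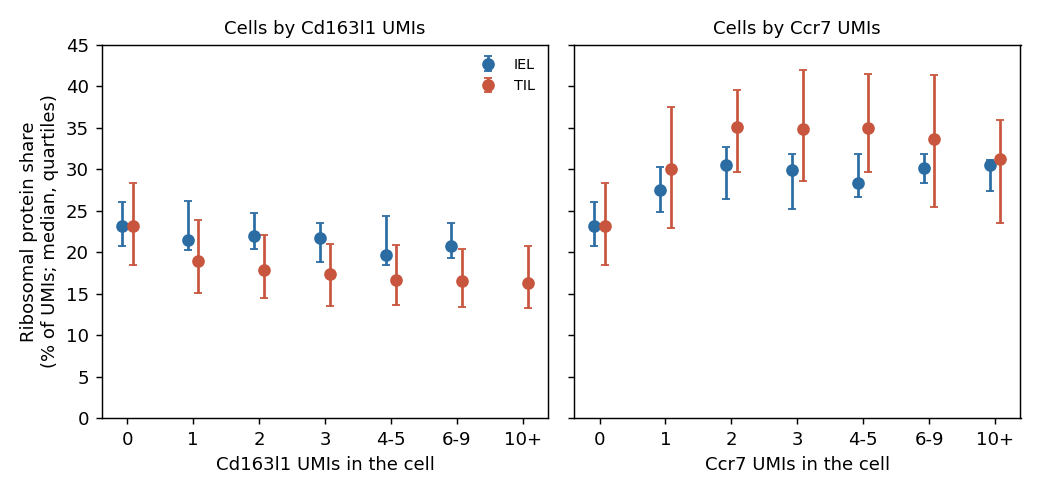
Median ribosomal protein share per cell (y axis, percent of all UMIs; bars from the lower to the upper quartile) by the number of Cd163l1 UMIs (left, cells without Ccr7 UMIs) or Ccr7 UMIs (right, cells without Cd163l1 UMIs) in the cell (x axis), for IEL and TIL cells. TIL medians step down from 23.1% to 16.3% with Cd163l1 UMIs and up from 23.1% to about 35.0% at 2 Ccr7 UMIs.

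The few cells of normal colon with the same UMIs gave a further view. The 99 IEL cells with a Ccr7 UMI and no Cd163l1 UMI had a median share of 28.5%, against 23.1% in the 9025 IEL cells without Ccr7, a pooled log2 ratio of 0.28 (0.27 to 0.29). Those cells also held more UMIs, with a median of 8197 against 6852. The 96 IEL cells with a Cd163l1 UMI had a median share of 21.6%. Cells with a Cd8a UMI, found in most IEL cells, were close in the 2 libraries. Their median share was 22.6% in 6861 IEL cells and 22.8% in 622 TIL cells without Cd163l1 or Ccr7 UMIs, a pooled log2 ratio of 0.09 (0.08 to 0.09).

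By part of the ribosome, the 60S genes made up 11.9% of UMIs in IEL cells, 9.23% in Cd163l1 TIL cells and 15.6% in Ccr7 TIL cells, and the 40S genes 10.4%, 7.94% and 14.6%. Between Ccr7 and Cd163l1 TIL cells the log2 ratio was 0.88 for the 40S genes, 0.76 for the 60S genes and 0.75 for the P-stalk. Both subunits thus had a higher share in Ccr7 TIL cells than in the other groups, and a lower share in Cd163l1 TIL cells than in IEL cells. The P-stalk genes, whose proteins bind the translation factors on the large subunit, made up 1.24%, 1.14% and 1.93% of UMIs. Their log2 ratio between Cd163l1 TIL and IEL cells was -0.12, against -0.37 for the 60S genes and -0.39 for the 40S genes. The paralogs and associated proteins together made up 0.179%, 0.178% and 0.203%.

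Single genes were then compared by their summed UMIs, as CPM. A gene was called when it reached 20 CPM in either group, differed at least 1.5-fold and had a counting interval that left out a ratio of 1. A gene that reached 20 CPM in a single group could be called only as higher in that group. Of the 86 genes, 83 reached 20 CPM in each comparison, and the 3 that did not were Rpl3l, Rpl10l and Rpl39l. The most abundant gene was Rps24 in IEL cells (6207 CPM) and in Ccr7 TIL cells (9268 CPM), and Rplp1 in Cd163l1 TIL cells (4387 CPM). CPM is a count of molecules at the 3′ end and was not divided by transcript length.

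Between Ccr7 and Cd163l1 TIL cells, nearly all ribosomal protein genes were higher in Ccr7 cells. At least 1.5-fold higher were 66 of the 83 genes, or 33 of the 60S, 29 of the 40S, 2 of the P-stalk and 2 paralogs, against 10.6% of the 5721 genes tested. None was at least 1.5-fold lower, against 23.4% of all genes. The median gene of the 83 had a log2 ratio of 0.81, with quartiles of 0.63 and 0.90, against a median of -0.22 for all genes. The ratios were positive for 79 of the 83. At least 2-fold higher were 10 genes (background 5.3%), and none was at least 2-fold lower (background 9.56%).

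The leading 40S genes of that comparison were Rps18, Rps24, Rps20, Rps19 and Rps27. Rps18 stood at 4114 CPM in IEL cells, 2402 CPM in Cd163l1 TIL cells and 5474 CPM in Ccr7 TIL cells, a log2 ratio of 1.19 (1.17 to 1.21) between the TIL groups, and 38.6% of the 90-base runs at its 3′ end occur in other genes. Rps24, a gene mutated in some families with Diamond-Blackfan anemia, stood at 6207, 4279 and 9268 CPM, a log2 ratio of 1.12 between the TIL groups. Both genes were lowest in Cd163l1 TIL cells and highest in Ccr7 TIL cells. Rps19, the gene most often mutated in that anemia, stood at 2705, 2155 and 4633 CPM, and Rps20 at 3028, 2672 and 5763 CPM. Their log2 ratios between the TIL groups were 1.10 and 1.11. Of the 60S genes, Rpl12 led with 4302, 2711 and 5749 CPM and a log2 ratio of 1.08. Rpl36a followed with 1101, 735 and 1523 CPM and a log2 ratio of 1.05, but 61.7% of its 3′ end runs occur in a pseudogene. These 6 genes were picked by a high ratio between the TIL groups, so the order of those groups was given. IEL cells stood between them in each gene, as in the whole share.

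The genes named next had the lowest ratios between the TIL groups, and none of them was called. Rpl41, which encodes the smallest ribosomal protein, stood at 2711 CPM in IEL cells, 2487 CPM in Cd163l1 TIL cells and 3269 CPM in Ccr7 TIL cells, a log2 ratio of 0.39 between the TIL groups. Rpl24, Rpl10, Rps12, Rpl7a and Rps26 had log2 ratios of 0.43, 0.43, 0.44, 0.49 and 0.50. The ratio was below 0 for 4 genes, all of them paralogs or associated proteins and not core subunit genes. These were Rps27l (-0.31), Rpl7l1 (-0.18), Rpl36al (-0.15) and Rps19bp1 (-0.04), and each of the 4 lay above 0 under at least 1 alternative, with highest values of 0.06, 0.04, 0.06 and 0.18.

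Between Ccr7 TIL cells and IEL cells, 21 of the 83 were higher in the TIL cells by 1.5-fold or more, against 13.2% of the 6234 genes tested. None was at least 1.5-fold lower, against 32.6% of all genes. They were 10 genes of the 40S subunit, 8 of the 60S subunit, 2 of the P-stalk and 1 paralog. The median log2 ratio of the 83 was 0.45 against -0.26 for all genes, and 78 of the 83 were positive. At least 2-fold higher were 5 genes (background 7.31%), with Rpl35, Rps27l, Rpl31 and Rps15 among them, and none was 2-fold lower (background 16.8%).

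Rpl31, a 60S gene near the exit tunnel on chromosome 1 (39367842 to 39371911), stood at 507 CPM in IEL cells, 767 CPM in Cd163l1 TIL cells and 1095 CPM in Ccr7 TIL cells, with log2 ratios over IEL of 0.60 (0.58 to 0.62) and 1.11 (1.07 to 1.15). It was higher in each TIL group than in IEL cells, although the ribosomal protein share as a whole was lower in Cd163l1 TIL cells. Rps15 stood at 1329, 1545 and 2759 CPM and Rps25 at 1197, 1439 and 2332 CPM. Their log2 ratios over IEL were 0.22 and 0.27 in Cd163l1 TIL cells, under the 1.5-fold level, and 1.05 and 0.96 in Ccr7 TIL cells. Rpl35 stood at 780, 1051 and 1859 CPM, but 70.7% of the runs of 90 bases in its last 400 transcribed bases also occur in another gene, Gm2000, so its level depends on how such reads were assigned.

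At the other end of that comparison, Rpl14, Rpl13a, Rpl27, Rpl3 and Rps15a were nearly level between Ccr7 TIL and IEL cells. Rpl14 stood at 2178 CPM in IEL cells, 1277 CPM in Cd163l1 TIL cells and 1897 CPM in Ccr7 TIL cells, a log2 ratio of -0.20 (-0.23 to -0.17) between Ccr7 TIL and IEL cells that turned to 0.06 with the median gene set to 1. Rpl13a stood at 5646, 3835 and 5527 CPM. Rpl3, a core protein near the catalytic centre of the ribosome, stood at 2898, 1680 and 2957 CPM. These genes were low in Cd163l1 TIL cells and much alike in the other 2 groups.

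Between Cd163l1 TIL cells and IEL cells, 12 of 83 genes were at least 1.5-fold lower in the TIL cells, a share below the background of 26.9% of 6343 genes. Only 3 were at least 1.5-fold higher (Rps27l and Rpl31 among them), against 21.1% of all genes. The ratio was below 0 for 69 of the 83, most of them moved by less than 1.5-fold. The median of the 83 was -0.37 against -0.09 for all genes. The 12 lower genes included abundant ones, such as Rpl13 and Rps15a, and their part of the drop in the whole share was not computed. At least 2-fold lower was 1 gene, Rps27rt (background 14.8%), and at least 2-fold higher was 1 gene, Rps27l (background 12.1%). With the median gene set to 1, 6 genes were lower and 3 higher. In droplets with a Cd3 UMI and few UMIs of other cell types, 26 were lower and 2 higher. The shares of all genes were not counted under these alternative settings, so these counts have no background.

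The lower genes of that comparison came from both subunits. Of the 60S subunit, Rpl3 had a log2 ratio of -0.79, Rpl14 of -0.77, Rpl13 of -0.73 and Rpl12 of -0.67. Of the 40S subunit, Rps18 had a log2 ratio of -0.78, Rps15a of -0.74, Rps16 of -0.65, Rps23 of -0.62 and Rpsa of -0.59. Rpsa, which is also known as the laminin receptor precursor, stood at 4184 CPM in IEL cells, 2775 CPM in Cd163l1 TIL cells and 5313 CPM in Ccr7 TIL cells. Rps15a stood at 5985, 3590 and 6186 CPM, and Rpl13 at 5997, 3607 and 7147 CPM.

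The P-stalk genes did not share one pattern. Rplp1 stood at 5321 CPM in IEL cells, 4387 CPM in Cd163l1 TIL cells and 7978 CPM in Ccr7 TIL cells, and Rplp2 at 3785, 3188 and 5828 CPM, so both followed the whole share. Rplp0, which anchors the other two, stood at 3326, 3872 and 5498 CPM. Its log2 ratio between Cd163l1 TIL and IEL cells was 0.22 (0.21 to 0.23), while that of Rplp1 was -0.28 and that of Rplp2 was -0.25.

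**Figure D3:**
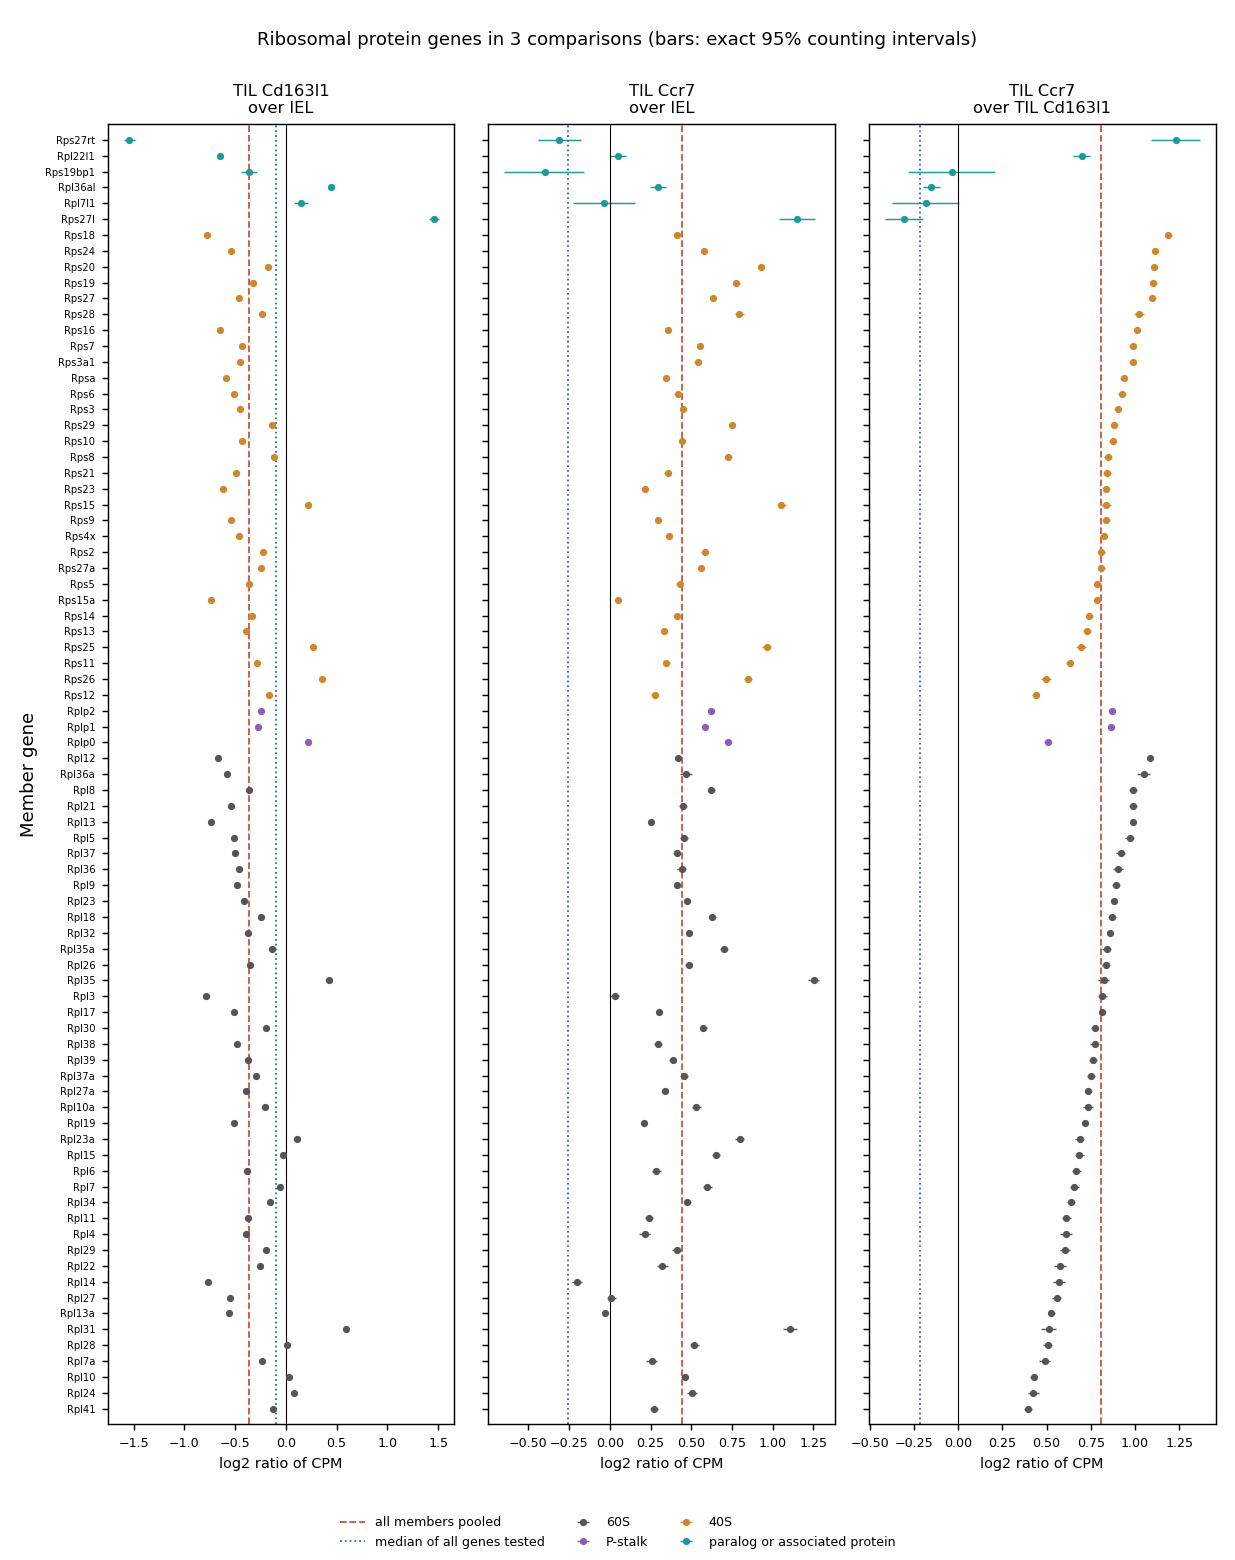
Log2 ratio of CPM (x axes, with exact 95% counting intervals as bars) for 81 of the ribosomal protein genes at 20 CPM or more, in the 3 comparisons, coloured by part of the ribosome and ordered within each part by the right-hand panel; the dashed line is the ratio of the whole share and the dotted line the median of all genes tested. In the right-hand panel 77 of the 81 genes drawn lie above 0, and Rpl31, Rpl35 and Rps27l lie furthest right in the middle panel.

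Several paralogs, genes that encode a close copy of a core protein, departed from the whole share. Rps27l, a copy of Rps27 that is a target of the tumor suppressor p53, lies on chromosome 9 (66946086 to 66949516). It stood at 73.9 CPM in IEL cells (5082 UMIs), 203 CPM in Cd163l1 TIL cells (13390 UMIs) and 164 CPM in Ccr7 TIL cells (743 UMIs). Its log2 ratio over IEL was 1.46 (1.41 to 1.51) in Cd163l1 TIL cells and 1.15 (1.04 to 1.26) in Ccr7 TIL cells. After thinning each cell to 2000 UMIs, 13.8% of IEL cells, 31.6% of Cd163l1 TIL cells and 22.7% of Ccr7 TIL cells held a Rps27l UMI (40.8%, 70.2% and 50.1% without thinning).

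Rps27, the core gene, ran the other way in Cd163l1 TIL cells. It stood at 3692 CPM in IEL cells, 2679 CPM in Cd163l1 TIL cells and 5738 CPM in Ccr7 TIL cells. Rps27rt, an intronless copy on chromosome 9 (114982366 to 114982739), stood at 138, 47.4 and 111 CPM, with a log2 ratio of -1.54 (-1.60 to -1.48) between Cd163l1 TIL and IEL cells. Both are uncertain: 89.8% of the runs of 90 bases at the 3′ end of Rps27rt also occur in Rps27, and 45.2% of those of Rps27 occur in Rps27rt. Their start windows printed above also share a run of 17 bases.

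Rpl22 and its copy Rpl22l1 are of interest in T cells because loss of Rpl22 in mice arrests alpha-beta but not gamma-delta T cell development. Rpl22 stood at 1431 CPM in IEL cells, 1201 CPM in Cd163l1 TIL cells and 1791 CPM in Ccr7 TIL cells. Rpl22l1 stood at 816, 520 and 844 CPM, with a log2 ratio of -0.65 (-0.67 to -0.63) between Cd163l1 TIL and IEL cells, against -0.25 for Rpl22. Between the TIL groups the log2 ratios were 0.70 for Rpl22l1 and 0.58 for Rpl22. Rpl36a and Rpl36al moved in opposite directions between Cd163l1 TIL and IEL cells. Rpl36al stood at 665, 906 and 816 CPM, with a log2 ratio of 0.45 in that comparison, and Rpl36a had -0.58, but 61.7% of the 3′ end runs of Rpl36a occur in a pseudogene.

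Rpl39l, a copy of Rpl39 known from the testis and from tumor cells, lies on chromosome 16 (10170226 to 10174911). It stood at 0.785 CPM in IEL cells (54 UMIs), 11.5 CPM in Cd163l1 TIL cells (760 UMIs) and 4.64 CPM in Ccr7 TIL cells (21 UMIs). It was under the level for a call, and its log2 ratio between Cd163l1 TIL and IEL cells was 3.88 (3.48 to 4.30). A Rpl39l UMI was found in 0.383% of IEL cells, 3.57% of Cd163l1 TIL cells and 0.868% of Ccr7 TIL cells, and after thinning to 2000 UMIs in 0.110%, 1.69% and 0.583%. In TIL cells with a Cd8a UMI it stood at 0.527 CPM (2 UMIs), beside 0.791 CPM in IEL cells with a Cd8a UMI. In the 96 IEL cells with a Cd163l1 UMI it stood at 4.64 CPM, from 4 UMIs. Its core gene Rpl39 stood at 2853 CPM in IEL cells, 2199 CPM in Cd163l1 TIL cells and 3726 CPM in Ccr7 TIL cells.

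Rpl3l and Rpl10l were at or near 0. Rpl3l, known from heart and skeletal muscle, had 0, 5 and 1 UMIs in the 3 groups, and Rpl10l, known from the testis, had 8, 2 and 0. No fold is given for them. Rpl10 stood at 2875 CPM in IEL cells, 2941 CPM in Cd163l1 TIL cells and 3952 CPM in Ccr7 TIL cells, but 85.8% of its 3′ end runs occur in a pseudogene. Rps4x, the X-linked core gene, stood at 3549, 2580 and 4564 CPM and followed the whole share. Rpl7l1 stood at 54.7, 60.7 and 53.4 CPM, and Rps19bp1, which encodes a nucleolar protein that binds Rps19, at 42.8, 33.3 and 32.5 CPM. In all, 12 of the 86 genes shared at least 1 run of 90 bases at the 3′ end with another gene of the tables.

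**Figure D4:**
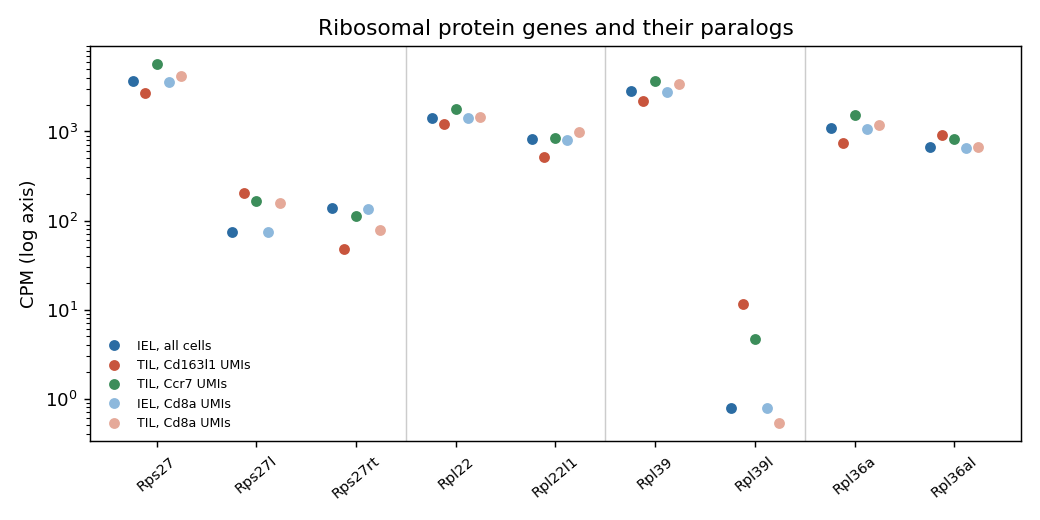
Summed level (y axis, CPM, log scale) of 4 core ribosomal protein genes and their paralogs (x axis) in all IEL cells, TIL cells with Cd163l1 UMIs, TIL cells with Ccr7 UMIs and cells with a Cd8a UMI of either library; each point is 1 group of cells. Rps27l is higher in all 3 TIL groups (156 to 203 CPM) than in the 2 IEL groups (73.9 and 75.2 CPM), and Rpl39l is highest in Cd163l1 TIL cells at 11.5 CPM.

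Cells with a Cd8a UMI were compared in the same way between the libraries. Between TIL and IEL cells with a Cd8a UMI, 6 of the 83 passed the 1.5-fold level upward, against 8.7% of the 6090 genes tested. Among these were Rps27l (log2 ratio 1.05), Rpl31 (0.84), Rpl35 (0.69), Rps25 (0.67) and Rps15 (0.59). Only Rps27rt was at least 1.5-fold lower (-0.79), against 14.4% of all genes. Both shares of the 83 were below those of all genes. The median log2 ratio of the 83 was 0.08. Rpl31 stood at 498 CPM in Cd8a cells of IEL and 891 CPM in those of TIL. Rps27l stood at 52.2 CPM in IEL cells with a Cd163l1 UMI and at 86.0 CPM in IEL cells with a Ccr7 UMI. Rps27l was higher in each TIL group named here than in each IEL group, from cells of 1 library each.

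Within the IEL library, no ribosomal protein gene was called between cells with a Ccr7 UMI and cells without. At least 1.5-fold higher were 0 of 83, against 4.19% of 6082 genes, and 0 were lower, against 6.41%. The ratios were still positive for 79 of the 83, with a median of 0.29 against -0.03 for all genes. Among the highest were Rpl35 (0.58) and Rpl28 (0.56).

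All matched starts, and not only those shown above, were set beside the ratios as a description. The 14 genes with a pyrimidine run at the annotated start had a median log2 ratio of -0.47 between Cd163l1 TIL and IEL cells, against -0.38 for the 49 tested genes with another start. Between Ccr7 TIL and IEL cells the medians were 0.43 and 0.41, and between the TIL groups 0.84 and 0.74. The ranges of the 2 sets overlapped in each comparison, and the genes not matched to a start are left out.

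Genes that work with the ribosome were taken from 4 lists. In the list of 35 translation factors and other genes of the TOP class, all at 20 CPM or more, 5 were higher and 1 lower in Ccr7 than in Cd163l1 TIL cells, beside 10.6% and 23.4% of all genes, with a median log2 ratio of 0.23 beside -0.22. The higher ones included the elongation factor genes Eef1b2 (1851 against 937 CPM, 0.98) and Eef1g (614 against 332 CPM, 0.89) and the nucleolar Npm1 (1145 against 674 CPM, 0.76). The lower one was Eif4e, the cap-binding factor (84.6 against 128 CPM, -0.60). Between Cd163l1 TIL and IEL cells, 3 were higher and 8 lower, neither share above the 21.1% and 26.9% of all genes, with a median of -0.18 beside -0.09. Eif4a2, an RNA helicase of initiation, was lower at 166 against 558 CPM (-1.75), and Eif4e was higher at 128 against 58.7 CPM (1.13). Between Ccr7 TIL and IEL cells, 5 were higher, Tpt1 among them at 13406 against 8203 CPM (0.71), and 1 was lower, beside 13.2% and 32.6% of all genes.

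Of the 35 ribosome biogenesis genes, 28 were tested between the TIL groups, and 15 were higher and 0 lower in Ccr7 cells, beside 10.6% and 23.4% of all genes, with a median log2 ratio of 0.59 beside -0.22. Myc, a transcription factor that drives ribosome production, stood at 22.1 against 3.28 CPM (2.75), from 100 and 216 UMIs. It reached 20 CPM only in Ccr7 cells, so it could be called only as higher there. Gnl3, a nucleolar GTPase, stood at 124 against 50.9 CPM (1.29), and Mybbp1a at 44.8 against 22.4 CPM. Between Cd163l1 TIL and IEL cells 7 of 27 were lower, a share near the 26.9% of all genes, and 1 was higher, beside 21.1%, with Rrp9 (-1.22), Nop56 (-0.89) and Nop14 (-0.87) lowest and Nop16 (1.20) higher. Between Ccr7 TIL and IEL cells 2 of 29 were higher, Nop16 (1.70) and Myc (1.04), and 1 was lower, Rrp9 (-0.61), beside 13.2% and 32.6% of all genes. In IEL cells Nop16 stood at 9.82 CPM and Myc at 10.8 CPM, under 20 CPM, so over IEL they could be called only as higher. Rrp9 stood at 14.5 CPM in Cd163l1 TIL cells and could be called there only as lower.

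The ribosomal proteins of mitochondria are a separate set of genes named Mrpl and Mrps. Between Ccr7 TIL and IEL cells, 1 of 73 was higher (Mrps21, 0.61) and 27 were lower, the latter a share near the 32.6% of all genes. The median log2 ratio was -0.48, beside -0.26 for all genes and 0.45 for the cytoplasmic set. Mrpl9 stood at 53.2 against 160 CPM (-1.59). Between Cd163l1 TIL and IEL cells 4 were higher and 24 lower, beside 21.1% and 26.9% of all genes, with a median of -0.28, below 0 as that of the cytoplasmic set was. Between the TIL groups 1 of 67 was higher (Mrpl30, 0.65) and 6 lower, beside 10.6% and 23.4% of all genes, with a median of -0.15 beside -0.22.

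Of the 24 genes of mTOR signalling and translation control, 14 to 17 were tested in each comparison. Higher and lower were 5 and 6 of 17 between Cd163l1 TIL and IEL cells, beside 21.1% and 26.9% of all genes. Between Ccr7 TIL and IEL cells they were 5 and 6 of 16, beside 13.2% and 32.6% of all genes. Between the TIL groups they were 2 and 4 of 14, beside 10.6% and 23.4% of all genes. Ddit4, an inhibitor of mTOR complex 1 induced by stress, stood at 16.2 CPM in IEL cells, 76.0 CPM in Cd163l1 TIL cells and 47.3 CPM in Ccr7 TIL cells. Atf4, a transcription factor of the amino acid response, stood at 684, 227 and 269 CPM. Ddit4 was thus higher and Atf4 lower in both TIL groups than in IEL cells. Larp1, which binds TOP mRNAs, stood at 52.2 CPM in Cd163l1 and 79.9 CPM in Ccr7 TIL cells (0.61), and Eif4ebp1, a repressor of translation initiation, at 28.8 and 13.9 CPM (-1.05).

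**Figure D5:**
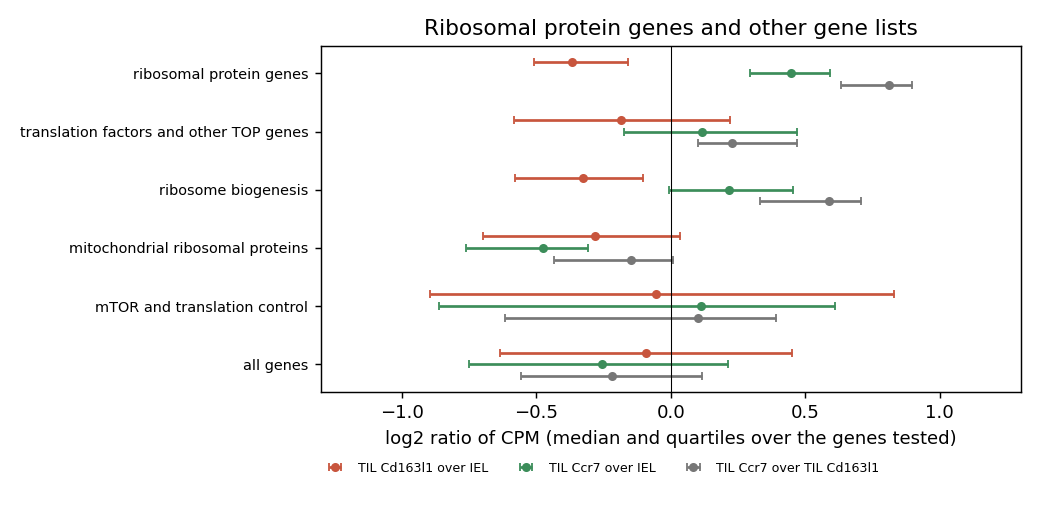
Median log2 ratio of CPM over the tested genes of each list (points; bars from the lower to the upper quartile) in the 3 comparisons (x axis, log2), for ribosomal protein genes, the 4 related lists and all genes tested. The medians of the ribosomal protein genes are -0.37, 0.45 and 0.81, while those of the mitochondrial ribosomal proteins are -0.28, -0.48 and -0.15.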

How the data were processed

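Single-cell RNA-seq counts of 1 IEL and 1 TIL library were used (10x Genomics 3′ v3 chemistry, per the labels). Whole-number counts of UMIs, 1 for each gene and barcode, are what the authors deposited, not normalized. Cell Ranger 6.1.1 and mm10 (GRCm38) are named in the submitters' processing notes. How barcodes were called as cells and how reads shared by near-identical genes were counted are not given in the sources used here. The libraries held 69414155 (IEL) and 94953893 (TIL) UMIs.

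Counts were summed over the cells of a group with Python 3.11.15, numpy 2.4.6, pandas 2.3.3 and scipy 1.17.1, and divided by all UMIs of the group (CPM). Ratios carry exact 95% intervals conditional on the summed counts, which cover counting error only, since cells are not replicates. A gene was called at 20 CPM or more in either group, a 1.5-fold difference and an interval excluding 1. The script was tested on simulated data. Named genes were the 10 highest and 10 lowest members of each comparison, a fixed list of paralogs and their core genes, and the 3 furthest in each direction of the other lists. Some genes of that rule are counted but not reported here. Members, lists and alternatives were chosen with earlier results of these data known. Transcripts of GENCODE vM21 gave the shared 3′ ends and gene positions, and RefSeq gave the starts. No protein sequence was used. Alternatives changed the cell filter, the choice of cells, the scaling, the CPM level and the fold.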

Additional observations from a re-analysis of the deposited data

How the results depend on the processing

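No direction of the ribosomal protein share changed under any alternative tried. Values follow in the order Cd163l1 TIL over IEL, Ccr7 TIL over IEL and Ccr7 over Cd163l1 TIL. With no cell filter the log2 ratios were -0.36, 0.45 and 0.81, and with a stricter one 0.45 and 0.81 for the last 2. With cells chosen by at least 2 UMIs of the selecting gene they were -0.37, 0.42 and 0.79, and by UMIs left after thinning to 2000 per cell -0.39, 0.36 and 0.75. In cells with 4000 to 10000 UMIs they were -0.42, 0.54 and 0.96. In droplets with a Cd3 UMI and few other-type UMIs they were -0.47, 0.57 and 1.04, and with Cd74 and H2-Ab1 left out of those markers, an alternative chosen after seeing the data, -0.40, 0.51 and 0.90. In cells with a delta or gamma chain and no Trac UMI they were -0.47, 0.41 and 0.88. Without mitochondrial UMIs they were 0.45 and 0.81 for the last 2. As a mean of single-cell shares they were -0.40, 0.49 and 0.89, and with the median gene ratio set to 1 they were -0.27, 0.70 and 1.02. Without paralogs they were -0.36 and 0.81 for the first and last. The cause of these movements was not tested.

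The counts of called genes depended on the fold and the scaling. Apart from the 2-fold level, the share of all genes called was not counted under the alternatives, so these counts have no background. At 2-fold, 1, 5 and 10 genes were higher, and 1 was lower in the first comparison. With the median gene set to 1, 59 were higher in Ccr7 TIL cells than in IEL cells and 6 were lower in Cd163l1 TIL cells. In droplets with a Cd3 UMI and few other-type UMIs, 39 were higher in Ccr7 TIL cells than in IEL cells, 26 were lower in Cd163l1 TIL cells than in IEL cells, and 1 was lower in each of the other comparisons. With Cd74 and H2-Ab1 left out, 1 was lower in Ccr7 TIL cells than in IEL cells. In cells without a Trac UMI 26 were lower in Cd163l1 TIL cells. At 5 CPM, 1 was lower between the TIL groups, since Rpl39l then enters. No paired analysis was possible because each group has 1 library. No library could be left out of a comparison between tissues, and the comparison between the TIL groups does not use the IEL library. Depth limits Rpl3l and Rpl10l. No named gene that was called changed direction. Over the named genes and alternatives, 735 log2 ratios stayed within their counting interval and 806 left it.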
